A study of Mus musculus with 6 samples.

Results

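The genes described here are the CD3 chains and the kinases and adaptors that act first when a T cell receptor is engaged: Cd3d, Cd3e, Cd3g, Cd247, Lck, Fyn, Zap70, Lat and Lcp2. They were chosen by name, as members of one signalling complex, and all 9 were found among the 24015 gene symbols counted. RNA sequencing measured their transcripts in mouse DN3 thymocytes, cells without surface CD4 and CD8 that were sorted from thymus for low CD44 and high CD25. The study asked what long and other isoforms of Tcf1, a transcription factor of the HMG-box family whose gene is Tcf7, do in T cell development. There were 3 groups of 2 libraries. Control libraries came from mice labelled wild type, with no Cre named. p45-deficient libraries came from mice of genotype p45-/-, which lack the long isoforms of Tcf1. Tcf1-deficient libraries came from Lck-cre+ Tcf1 fl/fl mice, in which Lck-Cre, a Cre recombinase named for the Lck gene that is itself measured here, was used to ablate Tcf1. Protein was not measured. The labels give no ages, no strain and no count of animals. Whether libraries of one group are from separate mice is not stated either, so p-values measure only how these libraries vary, and that variation may be technical.

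Most developing T cells at DN3 have no complete T cell receptor. A rearranged beta chain pairs with the pre-TCR alpha chain, encoded by Ptcra, and the pair is carried to the membrane by CD3 gamma, delta and epsilon and the zeta chain, whose cytoplasmic tails hold the tyrosine motifs of the complex. Lck and Fyn, kinases of the Src family, phosphorylate those motifs, ZAP-70 or its relative Syk docks on them, and ZAP-70 then phosphorylates the adaptors LAT and SLP-76 (encoded by Lcp2), from which calcium, Ras and actin pathways start. Signalling of this kind carries DN3 cells through beta-selection.

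The libraries held 19640524 to 28107031 counts, and the 9 genes took 0.435% to 0.480% of them. Each of the 9 had at least 1979 counts in every library and passed the filter on low counts, as did 12939 genes in all. Levels are given as CPM, read counts of a gene scaled to a library size that was adjusted by the TMM method, and tests are by edgeR's quasi-likelihood method with p-values adjusted over the 12939 genes, called below 0.05. Tcf7 stood at 2088 and 1810 CPM in control, 2340 and 2414 CPM in p45-deficient and 979 and 976 CPM in Tcf1-deficient libraries. In Tcf1-deficient against control cells Tcf7 was 1.99-fold lower, and it was not called (adjusted p = 0.0762). Counts per gene do not separate its isoforms. The 14 DN3 markers, which include Tcf7 and Cd3e, summed to 12704 and 10694 CPM in control, 11898 and 11216 CPM in p45-deficient and 7941 and 10877 CPM in Tcf1-deficient libraries. Il2ra, which encodes the CD25 of the sort gate, was at 923 to 1991 CPM. Tcf1-deficient replicate 1 stood apart from its partner: the recombinase gene Rag1 was at 458 CPM against 801 to 1621 CPM in the other 5 libraries and Rag2 at 20.7 against 59.0 to 154 CPM. Cd4 was at 372 CPM against 46.1 to 86.5 CPM, Ccr7 at 123 CPM against 8.94 to 20.9 CPM, Cd44 at 41.0 CPM against 4.70 to 7.94 CPM, and Il2rb at 80.6 CPM against 9.38 to 14.3 CPM. Calls of the 9 genes that change when that library is left out are given with and without it. For other genes, not all such changes are given. In sorted bulk RNA, fewer cells that express a gene and less of its RNA per cell cannot be told apart.

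The 4 promoters below are shown because their genes differed most between groups. Each is the 250 bases before the RefSeq transcription start, 5′ to 3′ on the strand of the gene, from build GRCm38.p6. The files were counted on mm9, and no position was carried between builds. Capitals mark the word CTTTGAA, the word CTTTGAT, the word CTTTGTA or the word CTTTGTT, or the reverse complement of any of them, which are forms of the motif that Tcf1 and its relative Lef1 are known to bind. The windows are Fyn at chr10:39369549-39369798 (plus strand), the first of 3 Zap70 windows at chr1:36761548-36761797 (plus), Cd3d at chr9:44981536-44981785 (plus) and Cd3e at chr9:45009612-45009861 (minus).
Fyn: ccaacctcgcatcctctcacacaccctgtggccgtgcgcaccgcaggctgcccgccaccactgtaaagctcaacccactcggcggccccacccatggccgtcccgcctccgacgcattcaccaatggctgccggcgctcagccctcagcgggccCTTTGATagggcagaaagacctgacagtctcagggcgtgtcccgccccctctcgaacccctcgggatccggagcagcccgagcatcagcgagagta
Zap70: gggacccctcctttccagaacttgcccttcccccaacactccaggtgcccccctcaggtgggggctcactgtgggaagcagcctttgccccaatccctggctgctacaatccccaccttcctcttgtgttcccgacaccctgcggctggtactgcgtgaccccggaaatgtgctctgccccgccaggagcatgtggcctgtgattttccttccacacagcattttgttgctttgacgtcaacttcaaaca
Cd3d: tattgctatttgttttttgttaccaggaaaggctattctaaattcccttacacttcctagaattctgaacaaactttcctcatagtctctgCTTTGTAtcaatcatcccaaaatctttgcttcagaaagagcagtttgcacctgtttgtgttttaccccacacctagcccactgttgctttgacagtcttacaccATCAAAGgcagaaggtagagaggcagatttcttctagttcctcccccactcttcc
Cd3e: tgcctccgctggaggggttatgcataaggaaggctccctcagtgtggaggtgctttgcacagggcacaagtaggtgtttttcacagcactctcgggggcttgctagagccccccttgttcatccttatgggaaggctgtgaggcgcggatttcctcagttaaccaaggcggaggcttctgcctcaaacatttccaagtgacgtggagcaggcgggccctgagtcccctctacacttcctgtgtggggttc
The Fyn window held 1 match, CTTTGAT at 96 bases before the start. The Cd3d window held 2, CTTTGTA at 159 and ATCAAAG at 55 bases. There was no match in the Cd3e window or in any of the 3 Zap70 windows. A match, AACAAAG at 94 bases before the start, was found in 1 of 2 Lck windows, and none in those of Cd3g, Cd247, Lat and Lcp2. Altogether 3 of the 12 windows of the 9 genes (25%) held a match, against 4874 of 32851 windows of the same length (14.8%). By gene this was 3 of the 9 (33.3%), for which no share over all genes was taken. A match describes the letters of a window and was not read as a binding site, and a window without one says nothing about binding elsewhere. Cd3g, Cd3d and Cd3e follow each other on chromosome 9.

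Compared per kilobase of transcript, the 9 genes covered a wide range in control DN3 cells. Cd3g was highest at 896 ± 135 CPM per kb (mean ± SD, n = 2, as for all means below). Lck (590 ± 32.0), Cd3e (548 ± 25.8) and Lat (515 ± 10.2 CPM per kb) followed, and the lower control library of Lck (567) and the higher of Cd3e (566 CPM per kb) nearly met. No other neighbours in this order overlapped in control. Cd3d stood at 202 ± 5.51 and Cd247, the zeta chain, at 78.8 ± 9.54 CPM per kb. The lowest were Lcp2 (53.0 ± 4.91), Zap70 (45.8 ± 2.33) and Fyn (29.8 ± 4.22 CPM per kb). Levels of genes of one complex thus differed by more than an order of magnitude in the same cells, and the level of Lck exceeded that of Fyn in every library. In p45-deficient cells the level of Zap70 was 92.7 ± 7.84 and that of Fyn 62.6 ± 2.00 CPM per kb, above Lcp2 at 54.7 ± 2.40 CPM per kb. Lengths are of RefSeq-matched transcripts, and the order of control means was the same with the union of all exons. With that union, however, Cd247 (46.9), Lcp2 (46.1) and Zap70 (45.8 CPM per kb) were nearly level. The gap below Cd247 thus depends on the length used.

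**Figure D1:**
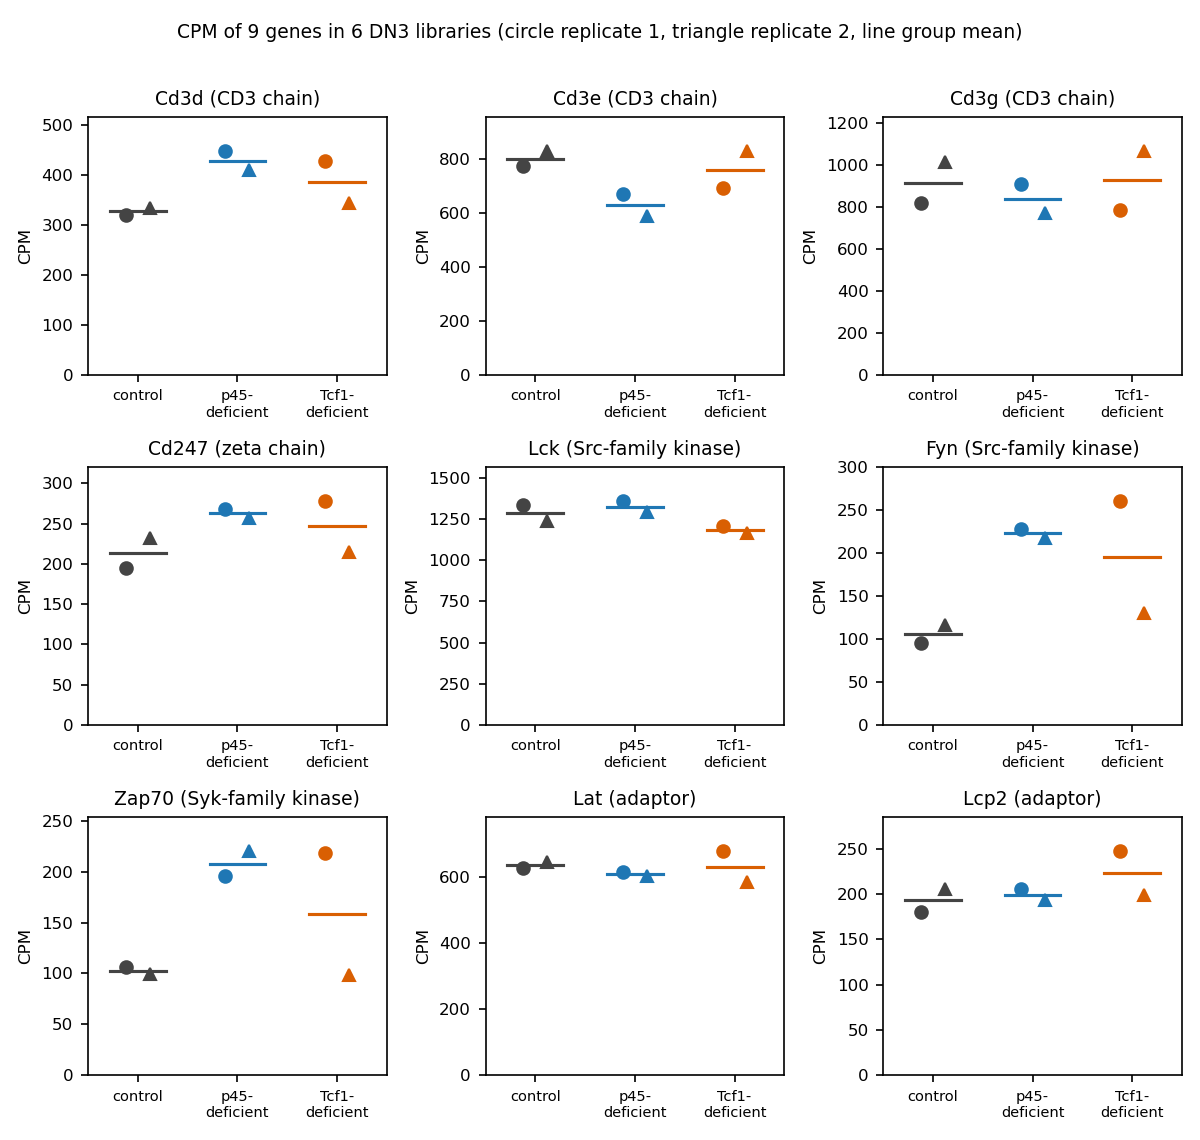
CPM (y axes, from 0, one panel per gene) of the 9 genes in control, p45-deficient and Tcf1-deficient libraries; circles are replicate 1, triangles replicate 2 and lines group means. For Fyn and Zap70 both p45-deficient libraries and Tcf1-deficient replicate 1 sit well above both controls, while Tcf1-deficient replicate 2 sits near them.

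Fyn and Zap70 showed the widest range of the 9. Fyn stood at 95.7 and 117 CPM in control, 228 and 218 CPM in p45-deficient, and 261 and 131 CPM in Tcf1-deficient replicates 1 and 2. All p45-deficient and Tcf1-deficient libraries lay above both controls, with Tcf1-deficient replicate 2 only just above. Zap70 stood at 106 and 99.0 CPM in control, 196 and 221 CPM in p45-deficient, and 219 and 98.3 CPM in Tcf1-deficient libraries. Both p45-deficient libraries lay above both controls, and the Tcf1-deficient pair was split, with replicate 1 at the p45-deficient level and replicate 2 below both controls. In p45-deficient against control cells the fold change was 2.10 for Fyn (log2 1.07, SE 0.31, adjusted p = 0.0619) and 2.03 for Zap70 (log2 1.02, SE 0.35, adjusted p = 0.0996), and neither was called. The model shares 1 estimate of spread among the 3 groups, and the split Tcf1-deficient pair enters it. Without Tcf1-deficient replicate 1, the p45-deficient rise was called for Fyn (2.02-fold, adjusted p = 0.000903) and for Zap70 (1.95-fold, adjusted p = 0.000751), and without replicate 2 likewise (adjusted p = 0.000810 and 0.000651). Over all alternatives tried, the adjusted p ran from 0.000810 to 0.298 for Fyn and from 0.000651 to 0.343 for Zap70.

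Lck, the Src-family kinase that starts receptor signalling, kept a narrow range. It stood at 1338 and 1239 CPM in control, 1360 and 1292 CPM in p45-deficient and 1206 and 1166 CPM in Tcf1-deficient libraries. Control and p45-deficient libraries overlapped, and both Tcf1-deficient libraries lay below the other 4. The log2 difference from control was 0.04 (SE 0.10, adjusted p = 0.812) in p45-deficient cells, with a sign that turned negative under other scalings (−0.07 with library totals), and −0.12 (SE 0.10, adjusted p = 0.780) in Tcf1-deficient cells.

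Of the CD3 chains, Cd3d and Cd3e stood on opposite sides of control in p45-deficient cells. Cd3d was at 320 and 333 CPM in control, 447 and 408 CPM in p45-deficient and 427 and 344 CPM in Tcf1-deficient libraries. Every p45-deficient and Tcf1-deficient library was above both controls. Cd3e was at 774 and 828 CPM in control, 671 and 588 CPM in p45-deficient and 690 and 829 CPM in Tcf1-deficient libraries. Both p45-deficient libraries were below both controls, while the Tcf1-deficient pair fell on both sides. The p45-deficient fold change was 1.31 for Cd3d (log2 0.39, SE 0.14, adjusted p = 0.0907), and Cd3e was 1.27-fold lower (log2 −0.35, SE 0.13, adjusted p = 0.116), neither called in the fit of all 6 libraries. Both were called without Tcf1-deficient replicate 1 (adjusted p = 0.0335 for Cd3d and 0.0202 for Cd3e), and again with it when replicate 2 was left out (adjusted p = 0.0187 and 0.0365).

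The gamma and zeta chains were less separated. Cd3g stood at 820 and 1014 CPM in control, 909 and 769 CPM in p45-deficient and 788 and 1068 CPM in Tcf1-deficient libraries, so that all 3 groups overlapped. Cd247 stood at 196 and 232 CPM in control, 268 and 257 CPM in p45-deficient and 278 and 215 CPM in Tcf1-deficient libraries. Both p45-deficient libraries were above control (log2 0.30, SE 0.16, adjusted p = 0.228), and the Tcf1-deficient pair overlapped control. Cd247 overlaps Pou2f1 in the annotation, and with no strand setting given their reads may not be fully separated. The microRNA genes Mir8119, with 20 counts over the 6 libraries, and Mir7058, with 645, overlap Lck and Lat in the same way.

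Both adaptors were near control in p45-deficient cells. Lat, the membrane scaffold phosphorylated by ZAP-70, was at 627 and 645 CPM in control, 613 and 603 CPM in p45-deficient and 678 and 584 CPM in Tcf1-deficient libraries. The p45-deficient libraries were just below control (log2 −0.06, SE 0.12, adjusted p = 0.734), and the Tcf1-deficient pair lay on either side of it. Lcp2, which encodes SLP-76, was at 181 and 206 CPM in control, 205 and 193 CPM in p45-deficient and 248 and 199 CPM in Tcf1-deficient libraries. Its highest value was in Tcf1-deficient replicate 1, and the other 5 libraries lay within 181 to 206 CPM. The p45-deficient difference was 0.04 on the log2 scale (SE 0.14, adjusted p = 0.860), of a sign that turned under other scalings (−0.06 with library totals).

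Ratios of counts within a library need no scaling between libraries. The ratio of Zap70 to Syk, the kinases that dock on the phosphorylated chains, was 0.977 and 0.989 in control, 2.70 and 2.96 in the p45-deficient pair, and 3.44 and 1.10 in Tcf1-deficient replicates 1 and 2. Syk itself stood at 109 and 100 CPM in control, 72.5 and 74.4 CPM in p45-deficient and 63.5 and 89.5 CPM in Tcf1-deficient libraries, so the ratio moved through both of its genes. The ratio of Fyn to Lck was 0.0715 and 0.0944 in control, 0.168 and 0.169 in the p45-deficient pair, and 0.216 and 0.112 in Tcf1-deficient libraries. In both ratios the p45-deficient libraries and Tcf1-deficient replicate 1 were far above control, and Tcf1-deficient replicate 2 was nearer to it. The ratio of Cd3d to Cd3e was 0.413 and 0.402 in control, 0.667 and 0.694 in the p45-deficient pair, and 0.618 and 0.415 in Tcf1-deficient libraries. That of Cd247 to Cd3e was 0.253 and 0.281 in control, 0.400 and 0.438 in the p45-deficient pair, and 0.403 and 0.260 in Tcf1-deficient libraries. The makeup of CD3 transcripts in Tcf1-deficient replicate 2 was thus within or close to the control range, and that of replicate 1 close to the p45-deficient one. These ratios describe the libraries and were not tested, and with 2 libraries a side an exact permutation test cannot go below p = 0.333.

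**Figure D2:**
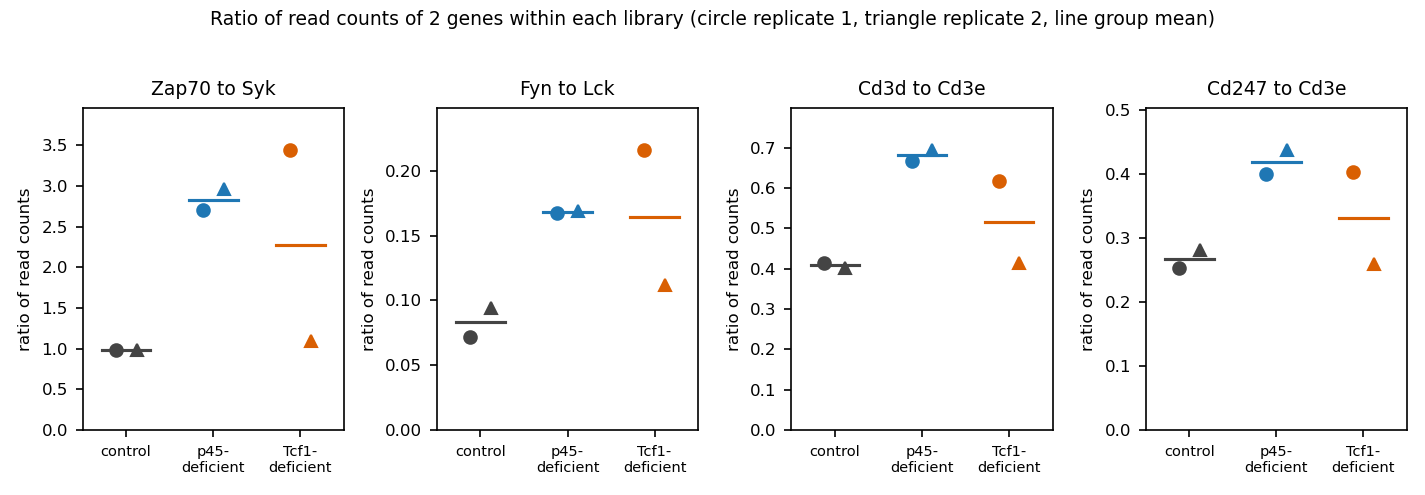
Ratio of read counts of 2 genes within each library (y axes, from 0) for Zap70 to Syk, Fyn to Lck, Cd3d to Cd3e and Cd247 to Cd3e; circles are replicate 1, triangles replicate 2 and lines group means. In each panel Tcf1-deficient replicate 1 lies nearer to the p45-deficient libraries than to control, and replicate 2 lies nearer to control, as for Zap70 to Syk at 3.44 and 1.10.

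Counted over the 9 genes, 0 passed the test in p45-deficient against control cells, where 16% of all 12939 genes did (8.47% higher and 7.55% lower). The split of all calls moved with the scaling, from 1096 higher and 977 lower with TMM to 721 and 1281 with library totals, as the median log2 difference of all genes shifted from 0.05 to −0.06. At an unadjusted p below 0.05 there were 4, namely Fyn, Zap70, Cd3d and Cd3e. The same 4 were called, 3 higher and 1 lower, without Tcf1-deficient replicate 1 (28.8% of all genes called), without Tcf1-deficient replicate 2 (28.9%), and when only control and p45-deficient libraries were fitted (31%). DESeq2 called Fyn and Zap70 (21.5% of all genes called). The p45-deficient and control libraries did not overlap for 6 of the 9 genes, with Cd3d, Cd247, Fyn and Zap70 above and Cd3e and Lat below, against 69.3% of all genes, so this count is near the background. The median log2 difference was 0.04 for the 9 genes and 0.05 for all genes, and the median size of the difference, sign aside, was 0.30 and 0.37.

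In Tcf1-deficient against control cells, 0 of the 9 were called, and so were 0% of all genes by edgeR, where 1 of the 9 (Fyn) and 1024 of all genes had an unadjusted p below 0.05. DESeq2 called none of the 9 and 141 of all genes. Fyn differed by log2 0.88 (SE 0.31, adjusted p = 0.613) and Zap70 by log2 0.62 (SE 0.35, adjusted p = 0.695). Both values rested on replicate 1. Without Tcf1-deficient replicate 2, Fyn was called at 2.44-fold (adjusted p = 0.00227) and Zap70 at 2.12-fold (adjusted p = 0.00303), beside 6.59% of all genes, with the single Tcf1-deficient library assumed to vary like the other groups. Without replicate 1 the log2 difference was 0.30 for Fyn (adjusted p = 0.670) and −0.06 for Zap70 (adjusted p = 0.915). The libraries did not overlap for 3 of the 9 genes, Fyn and Cd3d above control and Lck below, against 34.4% of all genes. The other log2 differences ran from −0.12 for Lck to 0.24 for Cd3d (adjusted p = 0.692).

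In Tcf1-deficient against p45-deficient cells, 0 of the 9 were called, where 10.4% of all genes were (5.05% higher and 5.36% lower), and none had an unadjusted p below 0.05 or was called by DESeq2. Differences on the log2 scale ran from −0.39 for Zap70 (SE 0.35, adjusted p = 0.478) to 0.27 for Cd3e (SE 0.13, adjusted p = 0.210). Libraries did not overlap for 2 of the 9, Cd3e above and Lck below, against 61% of all genes. Without Tcf1-deficient replicate 1, Zap70 was 2.04-fold lower (log2 −1.03, adjusted p = 0.00386) and Fyn 1.64-fold lower (log2 −0.72, adjusted p = 0.0217) in the remaining Tcf1-deficient library, beside 10.2% of all genes called. Control libraries enter both comparisons with control, so a like value of a gene in both is no separate evidence.

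**Figure D3:**
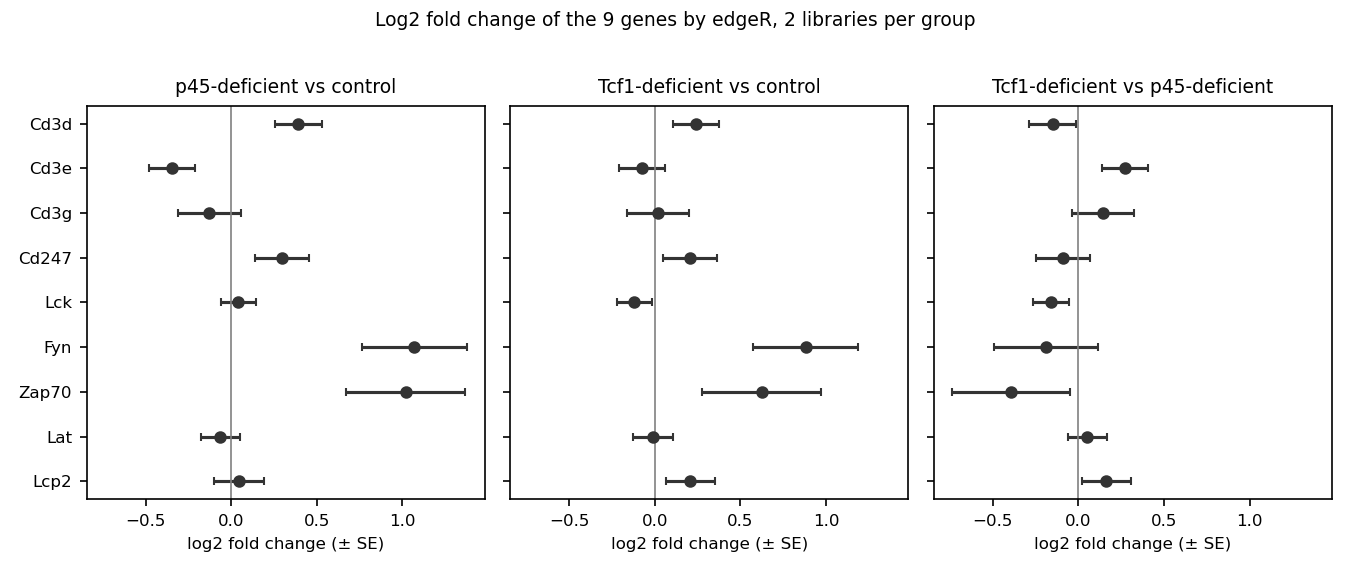
Log2 fold change with its SE (x axes) of the 9 genes (y axis) in the 3 comparisons by edgeR, 2 libraries per group. Fyn (1.07) and Zap70 (1.02) lie farthest from 0 in p45-deficient against control cells and have the widest errors.

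Genes of other cell types and states also differed between these libraries, and their part in the values of Fyn and Zap70 was not tested. Over 13 natural killer and innate lymphoid markers the summed level was 164 and 198 CPM in control, 878 and 867 CPM in p45-deficient and 461 and 384 CPM in Tcf1-deficient libraries. Most of this was the granzyme gene Gzma, and without it the sums were 41.3 and 61.7, 71.4 and 68.2, and 246 and 78.6 CPM. Tcf1-deficient replicate 1 was the highest of the 6 libraries for 9 of the 13 markers, among them Gzmb (73.5 CPM), Eomes (4.57 against 0.242 to 0.583 CPM) and Prf1 (5.93 against 0.992 to 1.40 CPM), while Ncr1 had 1 count over the 6 libraries. The summed level of the 8 gamma-delta T cell markers measured was 222 and 169 CPM in control, 583 and 500 CPM in p45-deficient and 363 and 353 CPM in Tcf1-deficient libraries. Without its most abundant gene, Cd163l1, the sums were 153 and 116, 200 and 251, and 252 and 239 CPM. The 10 markers of double-positive or later thymocytes summed to 1810 and 1979, 1783 and 1832, and 2233 and 1788 CPM, with Tcf1-deficient replicate 1 highest. The 20 cell-cycle genes summed to 4849 and 4408 CPM in control, 7482 and 7774 CPM in p45-deficient and 4017 and 5355 CPM in Tcf1-deficient libraries. Immediate-early and heat-shock genes summed to 1255 and 4612, 1106 and 1035, and 3803 and 4562 CPM.

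The genes that work around the 9 were counted in 5 lists. Among T cell receptor partners, coreceptors and CD45, 10 of 16 were measured and tested. The receptor chain genes Trac, Trdc and Tcrg-C1 were among the listed genes that were not counted, so the results do not cover them. No values are given for the beta chain genes Trbc1 and Trbc2, which were also listed. Of the 10, 0 were called in p45-deficient against control cells, where 16% of all genes were. There were 2 of the 10 at an unadjusted p below 0.05 and 0 called by DESeq2. Without either Tcf1-deficient library, and with only the 2 groups compared, 3 were called higher (Ptcra, Cd6 and Thy1). Calls over all genes rose as well, to 31% with only the 2 groups compared. Ptcra, the pre-TCR alpha chain that pairs with beta, stood at 186 and 180 CPM in control, 299 and 258 CPM in p45-deficient and 97.3 and 153 CPM in Tcf1-deficient libraries. Its 3 groups did not overlap, and it was 2.22-fold lower in Tcf1-deficient than in p45-deficient cells (adjusted p = 0.0215), as was the surface glycoprotein gene Thy1, by 1.40-fold (adjusted p = 0.0495). Neither the Ptcra nor the Thy1 call held without p45-deficient replicate 1 or 2, or without control replicate 1 or 2. With only the 2 groups compared, neither Ptcra (adjusted p = 0.0719) nor Thy1 (adjusted p = 0.132) was called. Without Tcf1-deficient replicate 1, Thy1 was not called (1.23-fold lower, adjusted p = 0.116) and Ptcra was, while without replicate 2 both were. Other scalings, the replicate block and the fit with no filter also lost the Thy1 call. These were the 2 called of the 10 in Tcf1-deficient against p45-deficient cells, where 10.4% of all genes were.

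Of 12 tested kinases of the Src, Syk, Tec and Csk families outside the 9, 2 rose and 1 fell in p45-deficient against control cells. Over all genes 16% were called. By DESeq2 (21.5% of all genes called) and with only the 2 groups compared (31%), 2 kinases were higher and 4 lower. The falls then added were those of Syk, Btk and Matk. Blk, a Src-family kinase of B cells and gamma-delta T cells, stood at 17.8 and 14.7 CPM in control, 37.7 and 35.8 CPM in p45-deficient and 23.9 and 22.5 CPM in Tcf1-deficient libraries, a 2.26-fold rise (adjusted p = 0.00616). Fgr, at 10.7 and 7.33 CPM in control and 21.0 and 23.5 CPM in p45-deficient libraries, rose 2.46-fold (adjusted p = 0.0262). Lyn, a Src-family kinase of B and myeloid cells, fell 3.01-fold, from 13.5 and 16.7 CPM to 3.68 and 6.37 CPM (adjusted p = 0.0351). Summed levels of the following marker lists were lower in the same libraries, while those of natural killer, gamma-delta and thymic stroma lists were higher. From control to p45-deficient the sum went from 44.0 and 35.3 to 19.0 and 16.6 CPM for B cells. For dendritic cells it went from 286 and 188 to 153 and 129 CPM, and without Bst2 from 141 and 67.4 to 39.9 and 41.4 CPM. For the earlier DN1 and DN2 stages it went from 110 and 110 to 43.6 and 34.9 CPM, and without Kit from 56.7 and 55.2 to 38.0 and 28.2 CPM. Of these 12 stage markers, 8 were lower in both p45-deficient libraries than in both controls, and 3 were higher (Lmo2, Lyl1 and Gfi1b). The part of such cells in the falls of Lyn, Lat2, Cd72 and Plcg2 was not tested. Against p45-deficient cells, Fgr was 2.55-fold lower (adjusted p = 0.0320) and Blk 1.58-fold lower (adjusted p = 0.0419) in Tcf1-deficient cells. Over all genes 10.4% were called in that comparison. With only the 2 groups compared, neither Fgr (adjusted p = 0.0642) nor Blk (adjusted p = 0.0722) was called. Both calls were lost without any one control or p45-deficient library. They were also lost on leaving out Tcf1-deficient replicate 1 (adjusted p = 0.0516 for Fgr and 0.0583 for Blk), and that of Blk also under each other scaling and with the replicate block. The Blk rise against control was lost without control replicate 2 or p45-deficient replicate 1, and the Fgr and Lyn calls without any one control or p45-deficient library.

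Of 22 tested adaptors around LAT and SLP-76, 2 rose and 4 fell in p45-deficient against control cells, where 16% of all genes were called. Sh2d1a, which encodes the SLAM-associated adaptor SAP that recruits Fyn, stood at 48.3 and 50.8 CPM in control, 119 and 117 CPM in p45-deficient and 47.0 and 69.1 CPM in Tcf1-deficient libraries. It was 2.38-fold higher in p45-deficient cells than in control (adjusted p = 0.00771). Lat2, which encodes the LAT relative NTAL, stood at 7.49 and 11.2 CPM in control, 1.87 and 3.73 CPM in p45-deficient and 17.3 and 23.2 CPM in Tcf1-deficient libraries. It fell 3.36-fold in p45-deficient against control cells (adjusted p = 0.0260) and was 7.27-fold higher in Tcf1-deficient than p45-deficient cells (adjusted p = 0.0101). The docking adaptor gene Gab2 fell 7.93-fold and the Lck-binding adaptor gene Lime1 fell 1.53-fold in p45-deficient cells. Against p45-deficient cells, 3 adaptors were higher in Tcf1-deficient cells (Lat2, Lime1 and Gab2) and 1 lower (Sh2d1a), beside 10.4% of all genes called. Without p45-deficient replicate 1 none of these was called, without p45-deficient replicate 2 only Lat2 was, and Sh2d1a was also lost without either control library. With only the 2 groups compared, Lat2 and Lime1 stayed called, while Gab2 (adjusted p = 0.0597) and Sh2d1a (adjusted p = 0.0686) did not. Of the 4 adaptors named, none kept its p45-deficient call under the omission of every single control or p45-deficient library.

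Of 30 tested inhibitors, 2 fell and 0 rose in p45-deficient against control cells, where 16% of all genes were called. This count of inhibitors moved with the libraries fitted. Without Tcf1-deficient replicate 1, and with only the 2 groups compared, 6 were higher and 4 lower, without Tcf1-deficient replicate 2, 8 were higher and 4 lower, and by DESeq2 2 were higher and 3 lower. Calls over all genes also rose in these fits, to 31% with only the 2 groups compared and 21.5% by DESeq2. Pag1, which encodes an adaptor that holds the inhibitory kinase Csk near Lck and Fyn, went from 593 and 526 CPM to 375 and 308 CPM, a 1.64-fold fall (adjusted p = 0.0320), and stood at 396 and 520 CPM in Tcf1-deficient libraries. The receptor gene Cd72 fell from 1.98 and 2.21 CPM to 0.515 and 0.527 CPM (adjusted p = 0.0410). In Tcf1-deficient against p45-deficient cells, 2 inhibitors were higher, beside 10.4% of all genes called. They were the phosphatase gene Ubash3b (8.46-fold, adjusted p = 0.0254), at 16.3 CPM in Tcf1-deficient replicate 1 and 4.99 CPM in replicate 2, and Cd72 (4.97-fold, adjusted p = 0.0368). Without Tcf1-deficient replicate 1 Ubash3b was 4.13-fold higher (adjusted p = 0.0202), and Cd72 was not called (3.55-fold, adjusted p = 0.0695). Each of the calls of Pag1, Cd72 and Ubash3b was lost without any one control or p45-deficient library. With only Tcf1-deficient and p45-deficient libraries fitted, neither Ubash3b (adjusted p = 0.0597) nor Cd72 (adjusted p = 0.0798) was called.

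Of the 42 effectors downstream of LAT and SLP-76, 4 rose and 7 fell in p45-deficient against control cells, 11 of 42 against 16% of all genes. Leaving out control replicate 1 gave 5 calls and control replicate 2 gave 6. There were 4 on omission of each p45-deficient library, 17 on omission of each Tcf1-deficient library, and 14 by DESeq2. Ppp3ca, the catalytic subunit of the calcium-dependent phosphatase calcineurin, stood at 16.6 and 16.6 CPM in control, 52.3 and 48.6 CPM in p45-deficient and 27.2 and 26.5 CPM in Tcf1-deficient libraries, a 3.04-fold rise (adjusted p = 0.00190). Pik3cd, the catalytic delta subunit of phosphoinositide 3-kinase, fell 2.13-fold, from 585 and 592 CPM to 280 and 273 CPM (adjusted p = 0.00406). Plcg2, a phospholipase C gamma used mainly by B cells, fell 9.06-fold, from 36.5 and 34.5 CPM to 2.35 and 5.55 CPM (adjusted p = 0.00446). For these 3 genes the p45-deficient libraries did not overlap those of control, and each stayed called without any one of the 6 libraries. In Tcf1-deficient libraries Pik3cd stood at 714 and 591 CPM and Plcg2 at 18.1 and 19.2 CPM. In Tcf1-deficient against p45-deficient cells 7 effectors were higher and 2 lower, beside 10.4% of all genes called. Pik3cd was 2.36-fold higher (adjusted p = 0.00408), Nfatc1, a transcription factor gene activated through calcineurin, 1.81-fold higher (adjusted p = 0.00980), Plcg2 4.76-fold higher (adjusted p = 0.0163) and Ppp3ca 1.88-fold lower (adjusted p = 0.0117). Nfatc1 stood at 168 and 165 CPM in control, 91.9 and 102 CPM in p45-deficient and 182 and 168 CPM in Tcf1-deficient libraries. With only Tcf1-deficient and p45-deficient libraries fitted, 3 effectors were higher and 1 lower in Tcf1-deficient against p45-deficient cells, and Plcg2 was not called (adjusted p = 0.0547). Without p45-deficient replicate 1 or 2, 1 and 2 effectors of that comparison were called.

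In Tcf1-deficient against control cells, none of the genes of the 5 lists was called, and 0% of all genes were. At an unadjusted p below 0.05 there were 2 partners, 3 kinases, 1 adaptor, 4 inhibitors and 7 effectors, and DESeq2 called 1 gene, Ppp3ca. Without Tcf1-deficient replicate 2, calls were 4 higher and 1 lower among partners, 1 and 2 among kinases, 1 and 0 among adaptors, 10 and 0 among inhibitors and 7 and 1 among effectors, with Cd5 and Cd6 counted in both of their lists. Without replicate 1 none was called. Across the lists, the median log2 difference in p45-deficient against control cells was 0.54 for the partners, −0.25 for the kinases, −0.07 for the adaptors, 0.20 for the inhibitors and −0.07 for the effectors, beside 0.05 for all genes. These are descriptions of the lists.

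**Figure D4:**
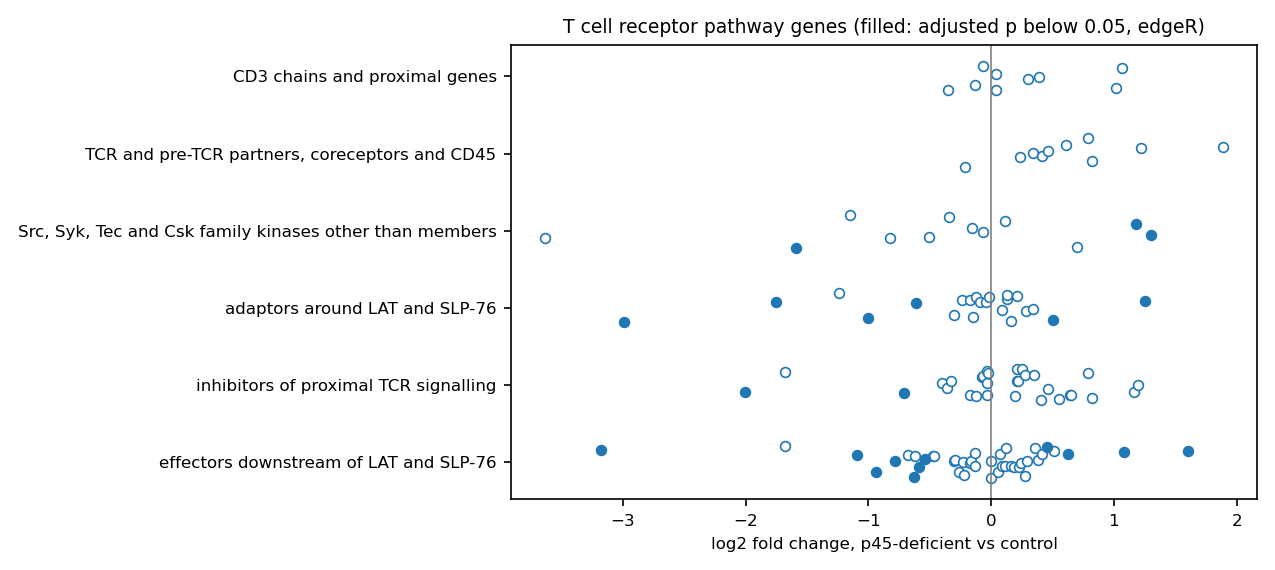
Log2 fold change in p45-deficient against control cells (x axis) of the 9 genes and of the 5 lists of genes around them (rows); filled points have an adjusted p below 0.05 by edgeR and points are spread vertically only for legibility. No point of the 9 is filled, and the effectors have 11 filled points, from Plcg2 at −3.18 to Ppp3ca at 1.60.

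Profiles over the 6 libraries were compared by the distance between centred log2 CPM values, among genes with a mean of at least 5 CPM. The 6 points share their libraries and the likeness is a description. Those nearest to Fyn were Acp5 (distance 0.26, Pearson r = 0.98), Serpinb9 (0.26) and Plcl2 (0.32). Those nearest to Zap70 were Tnk2 (0.17, r = 0.99), Plcl2 (0.30) and Pdcd1 (0.34), so Plcl2 was near both. Fyn and Zap70 lay 0.46 apart (r = 0.94), and 19 genes were closer to Fyn than Zap70 was. Nearest to Cd3d were Agpat3 (0.09), Cmas and Mien1. Cd247, at 0.18, had 44 genes closer to Cd3d than itself. Rnf214 (0.06), Akap9 and Rbm26 were nearest to Cd3e, and Kat2b (0.07), Ddx26b and Wls to Cd3g. Cd3d and Cd3e, neighbours on the chromosome, ran in opposite directions over the libraries (r = −0.78, distance 0.85), and Cd3e and Cd3g ran alike (r = 0.77, distance 0.30). Nearest to Cd247 were Kif3b (0.05), Herc4 and Rer1, and to Lck Zfp775 (0.04), Supt7l and Fn3krp. Asb6 (0.06), Noa1 and Gm16515 were nearest to Lat, and Map2k1 (0.08), Rap1gds1 and Ppm1a to Lcp2.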

How the data were processed

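The values are raw counts of reads for each gene symbol, whole numbers that the authors deposited without normalisation. Per the submitters' processing notes, TopHat2, featureCounts 1.5.0-p3 and DESeq2 3.4 were named, with genome build mm9. Their roles, the gene annotation and whether counting used strand are not given in these sources, so overlapping genes may share reads. Groups follow the genotype labels, and no batch is named. The 2 libraries of each group differed by more than counting noise (chi-square per degree of freedom 41.2 for control, 10.3 for p45-deficient and 78.2 for Tcf1-deficient pairs), and each was used as a replicate.

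Counts were tested in R 4.3.3 with edgeR 4.0.16, using filterByExpr, TMM scaling, 1 mean per group over all 6 libraries (3 residual degrees of freedom) and the robust quasi-likelihood F test, two-sided. P-values were adjusted by Benjamini-Hochberg over 12939 genes within each comparison, and SEs were taken from the F statistic. Alternatives were RLE, upper-quartile and library-total scaling, no filter, a replicate block, only the 2 groups compared, DESeq2 1.42.0 and leaving out each library. The test was also run on simulated data. Members, lists and markers were chosen with earlier results of these data known. All 9 members are named. From each list, up to 4 called genes per comparison by smallest p are named, most with their values in every group. For likeness, the 3 nearest genes per member are named. A gene that this rule would name is not reported here. Other genes are named as markers or label checks, or where an alternative called them or an annotation overlaps, and their values had been seen.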

Additional observations from a re-analysis of the deposited data

How the results depend on the processing

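Over 13 alternatives, 304 of the 351 values for the 27 combinations of gene and comparison kept their direction and their side of the threshold, 18 kept their direction and passed it, and 29 changed sign. Genes called in p45-deficient against control cells ran from 258 to 3923 when single libraries were left out, and numbered 3907 with only the 2 groups compared. Among the 9 genes the calls ran from 0 to 4, with 4 for only the 2 groups compared and 2 by DESeq2. In Tcf1-deficient against control cells all genes called ran from 0 to 894 on leaving out libraries, with 33 with no low-count filter and 141 by DESeq2, and members called from 0 to 2. In Tcf1-deficient against p45-deficient cells they ran from 105 to 3437, with 488 for only the 2 groups compared and 2441 by DESeq2, and members called from 0 to 2. The fall to 258 came without p45-deficient replicate 1 (387 without replicate 2, 450 and 535 without control replicates 1 and 2). The rises to 3857 and 3923 came without Tcf1-deficient replicates 1 and 2.

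Changes of sign are given on the log2 scale. Lck in p45-deficient against control cells was −0.0047 with RLE, −0.037 with upper-quartile, −0.066 with library-total scaling, −0.014 with no filter, −0.010 with only the 2 groups and −0.0037 by DESeq2, and ran from −0.069 to 0.083 on leaving out libraries. Lcp2 was −0.0018, −0.032, −0.061, −0.012, −0.0073 and −0.00095 in the same order, and ran from −0.099 to 0.092. In Tcf1-deficient against control cells, Cd3g was −0.016 with upper-quartile and −0.028 with library-total scaling. On leaving out libraries it ran from −0.23 to 0.22, Cd3e from −0.22 to 0.052, Zap70 from −0.062 to 1.08 and Lat from −0.12 to 0.084. In Tcf1-deficient against p45-deficient cells, Cd3g ran from −0.10 to 0.40, Cd247 from −0.23 to 0.071, Fyn from −0.72 to 0.21, Zap70 from −1.03 to 0.059 and Lat from −0.0040 to 0.14. The cause of these changes was not tested.

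Deviations of same-numbered libraries from their group means correlated at −0.01, −0.05 and −0.03. No pairing by replicate number showed, and such values cannot exclude one. With a replicate block, 1613, 0 and 920 genes were called in the 3 comparisons and 0 of the 9 members in each. RLE and upper-quartile scaling gave 893 higher and 1092 lower, and 820 and 1175, in p45-deficient against control cells. With 2 libraries per group, a p above the threshold does not show that levels were alike.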
